A study of Mus musculus with 8 samples.

Results

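Chromatin accessibility was examined at the mouse genes whose name is Gpr followed by a digit, the name given to proteins first recognised as G protein-coupled receptors by sequence, before a ligand was known. Members were taken by gene name from the table of accessible regions, leaving out Gpr34, and all regions assigned to a gene were summed. There were 50 such genes of 16095 genes with an assigned region, and they held 197 of the 67822 regions (called peaks here). The name is not a functional class: by textbook knowledge several members have accepted ligands, 7 are intracellular multi-pass proteins rather than classical surface receptors, and Gpr137b-ps is a pseudogene.

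The assay was ATAC-seq, which tags open chromatin with sequencing adapters through a transposase. The cells were CD11b+ microglia, the resident macrophages of the brain, taken from the forebrain of mice with 4 libraries per genotype. The knockout group (KO) came from Nlrp3-/- mice, labelled as Cias1 knockouts after the older name of the gene, and the WT group from wild types of C57BL/6N background. The study concerns NLRP3, the sensor protein of an inflammasome, and glutamine use by microglia in Alzheimer's disease; age, sex and any treatment are not stated by the labels. Magnetic selection on CD11b does not separate microglia from other myeloid cells, and the labels leave it unsaid whether replicates are separate mice. The p-values thus reflect the spread among these libraries, part of which may be technical.

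G protein-coupled receptors pass an outside signal across the membrane to a heterotrimeric G protein, whose alpha and beta-gamma parts then act on enzymes such as adenylyl cyclase and on ion channels. Receptor kinases and arrestins switch the receptor off, and RGS proteins shorten the active state of the alpha subunit. Microglia are known for surface receptors of this superfamily that sense nucleotides, chemokines, lipids and acid. Accessibility of a gene's regions is not its expression, and RNA was not measured in these samples.

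The libraries held 11325865 to 15521580 tags. The share of tags in peaks was 6.68%, 4.96%, 20.9% and 26.2% in KO replicates 1 to 4 and 17.5%, 9.79%, 12.8% and 14.4% in WT replicates 1 to 4, so that a median member peak held 8, 7, 21 and 29 tags in the KO libraries and 18, 14, 16 and 19 in the WT libraries. Counting error was therefore largest in KO replicates 1 and 2, and means weigh all 4 libraries of a genotype equally. Levels are given as CPM, tags scaled to a common total of tags in tested features with TMM factors, and levels of different genes are compared as CPM per kb of peak width, since a sum over peaks also follows their number and width. Nlrp3, the targeted gene, had 61.4, 68, 68.1 and 78.8 CPM over its 8 peaks in the KO libraries and 154, 181, 144 and 153 CPM in the WT libraries, a log2 fold change of -1.15 ± 0.10 (SE; adjusted p = 5.48e-07, edgeR's quasi-likelihood test). With scaling to all tags in place of tags in tested features the log2 fold change was -1.02 and the call was lost (adjusted p = 1, edgeR). Over promoter peaks only, the log2 fold change of Nlrp3 was -7.08 (adjusted p = 1.52e-22, edgeR). Over its peaks within 10 kb of a start it was -1.99 (adjusted p = 5.49e-11, edgeR). Microglia markers summed to 2125 to 2365 CPM in KO libraries and 1952 to 2198 CPM in WT libraries, with all 10 listed genes having peaks. Border macrophage and monocyte markers, 9 of 10 with peaks, summed to 349, 435, 213 and 220 CPM in KO replicates 1 to 4 and 241 to 349 CPM in WT libraries. The 2 KO libraries with the lowest share of tags in peaks were the highest in KO. Within this list Ly6c2 had by far the widest spread, 136 ± 102 CPM in KO and 135 ± 52.2 CPM in WT (SD). The border macrophage markers Mrc1 and Cd163 had 33.7 ± 4.74 and 37.7 ± 8.05 CPM in KO. In WT they had 33.2 ± 3.49 and 38.2 ± 7.29 CPM. Ms4a7 and Clec12a had higher means in KO, 18.9 ± 4.06 and 15.8 ± 4.8 CPM against 12 ± 2.26 and 9.46 ± 3.23 CPM in WT. Ccr2 had a lower mean, 11.3 ± 3.07 CPM in KO and 14.8 ± 3.68 CPM in WT. Lyve1, F13a1 and Pf4 had 22.2, 24.7 and 4.36 CPM in KO and 21.6, 22.6 and 4.46 CPM in WT. Peaks were assigned to 6 of 12 neuron markers (123 to 175 CPM in KO, 130 to 152 in WT; Map2 and Stmn2 had none), 8 of 10 astrocyte markers (444 to 577 in KO, 376 to 471 in WT), 9 of 12 oligodendrocyte lineage markers (572 to 660 in KO, 542 to 594 in WT), 8 of 11 endothelial and mural markers (726 to 801 in KO, 694 to 772 in WT) and 3 of 12 granulocyte and lymphocyte markers (45.3 to 63.7 in KO, 41.9 to 51.7 in WT). Slc1a3 held most of the astrocyte sum (372 CPM in KO, 300 CPM in WT) and Mbp of the oligodendrocyte sum (368 and 335 CPM). None of the tested genes on these lists passed the test. How far a mixture of cells bears on the levels below was not tested, and fewer open cells cannot be told apart from less access per cell.

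The promoter sequences of 6 receptors known from immune cells or as acid sensors show the letters under their promoter peaks. They are the members of these groups with the highest WT level per kb that had a promoter peak over a RefSeq start site. Each is the 250 bases before the start, from RefSeq (GRCm38.p6, the same assembly as mm10), written 5′ to 3′ on the strand of the gene, with the bases inside the ATAC peak in capitals. Gpr35 lies at chr1:92972869-92973118 (+), Gpr160 at chr3:30855700-30855949 (+), Gpr84 at chr15:103310439-103310688 (-), Gpr132 at chr12:112860917-112861166 (-), Gpr183 at chr14:121965194-121965443 (-) and Gpr4 at chr7:19212288-19212537 (+).
Gpr35: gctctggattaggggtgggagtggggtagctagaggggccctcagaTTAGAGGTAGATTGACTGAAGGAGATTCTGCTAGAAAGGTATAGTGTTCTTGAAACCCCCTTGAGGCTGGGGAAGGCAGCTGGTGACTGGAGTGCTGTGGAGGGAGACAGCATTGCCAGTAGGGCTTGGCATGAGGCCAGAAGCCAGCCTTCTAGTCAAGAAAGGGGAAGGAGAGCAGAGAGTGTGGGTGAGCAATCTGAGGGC
Gpr160: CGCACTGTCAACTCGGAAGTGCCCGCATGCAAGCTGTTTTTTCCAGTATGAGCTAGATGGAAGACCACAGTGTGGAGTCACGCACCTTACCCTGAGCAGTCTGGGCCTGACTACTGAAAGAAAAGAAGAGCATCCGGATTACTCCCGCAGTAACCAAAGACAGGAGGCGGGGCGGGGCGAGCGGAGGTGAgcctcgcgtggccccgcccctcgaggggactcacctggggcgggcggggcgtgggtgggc
Gpr84: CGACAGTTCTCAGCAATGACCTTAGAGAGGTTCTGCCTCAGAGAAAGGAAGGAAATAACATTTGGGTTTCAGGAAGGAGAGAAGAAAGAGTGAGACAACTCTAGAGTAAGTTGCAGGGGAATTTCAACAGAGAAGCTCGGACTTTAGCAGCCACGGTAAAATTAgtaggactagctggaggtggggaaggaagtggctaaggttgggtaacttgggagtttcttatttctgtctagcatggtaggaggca
Gpr132: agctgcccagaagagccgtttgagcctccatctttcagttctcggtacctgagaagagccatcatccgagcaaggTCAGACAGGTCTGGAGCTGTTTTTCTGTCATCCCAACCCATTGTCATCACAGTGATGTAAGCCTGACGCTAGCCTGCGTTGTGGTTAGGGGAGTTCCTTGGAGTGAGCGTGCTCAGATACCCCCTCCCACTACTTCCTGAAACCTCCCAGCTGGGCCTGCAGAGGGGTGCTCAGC
Gpr183: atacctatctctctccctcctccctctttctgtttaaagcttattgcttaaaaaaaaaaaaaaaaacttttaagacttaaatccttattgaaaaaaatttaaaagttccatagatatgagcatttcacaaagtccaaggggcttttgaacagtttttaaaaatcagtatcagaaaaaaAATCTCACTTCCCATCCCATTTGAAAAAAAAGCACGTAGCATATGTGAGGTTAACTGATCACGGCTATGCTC
Gpr4: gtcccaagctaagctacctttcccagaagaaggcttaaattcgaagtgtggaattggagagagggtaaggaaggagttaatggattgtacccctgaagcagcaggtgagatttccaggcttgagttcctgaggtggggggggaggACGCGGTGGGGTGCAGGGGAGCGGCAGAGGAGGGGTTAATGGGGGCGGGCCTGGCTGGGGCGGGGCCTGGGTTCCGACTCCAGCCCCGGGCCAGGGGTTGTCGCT

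The Gpr35 window held no CpG at all, with a CpG ratio (observed over that expected from the C and G content) of 0, while 204 of its 250 bases lay in the peak. In Gpr84, 164 bases were in the peak and the CpG ratio was 0.268. The Gpr183 window was AT-rich, with 32% G and C, and its peak reached only the 72 bases next to the start. Gpr132 and Gpr4 had ratios of 0.311 and 0.446. Gpr160 had the highest ratio of the 6, 0.71. Motifs were searched on both strands, each counted separately whether or not it overlapped another: a PU.1-type site (GAGGAAGT, PU.1 being the master factor of macrophages), an AP-1 site (TGANTCA), the GC box (GGGCGG), an E-box (CACGTG) and the TATA box (TATAAA). Of these, Gpr160 and Gpr4 held the GC box, and none of the letters searched were in the windows of Gpr35, Gpr84, Gpr132 and Gpr183.

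RefSeq promoter windows were found for 39 of the 50 members, 52 windows in all. A peak lay over 27 of them, in 21 genes, which is 51.9% of member windows against 64.8% of the 15118 windows of genes with an assigned peak, a difference that was not tested. The sequence shares below are set beside all 32851 windows, which also cover genes without an assigned peak. The member windows with a peak had a median CpG ratio of 0.607, against 0.265 in those without one, and the same split over all windows gave 0.758 and 0.233. Among windows with a peak, the 10 of intracellular multi-pass proteins had CpG ratios of 0.601 to 1.18 (median 0.718), while the 8 of immune cell and proton-sensing receptors ranged from 0 to 0.71 (median 0.322). These 8 include Gpr4, whose promoter peak was too low for the test of genotype, and the difference between the groups was not tested. The PU.1-type site was in 3 member windows (5.77%, against 2.44% of all windows), those of Gpr55, Gpr137 and Gpr137c, and each of the 3 had a peak. The GC box was in 36.5% of member windows and 32.7% of all, the TATA box in 7.69% and 12.4%, the AP-1 site in 3.85% and 6.75%, and the E-box in 0 of 52 member windows and 6.02% of all. A match is a string in a window and no evidence of binding.

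At their start sites, 23 of the 50 members were open (46%), which here means a peak annotated as promoter with enough tags to be tested. Over all 16095 genes the count was 10245 (63.7%), and this difference was not tested. Another 3 members, Gpr4, Gpr75 and Gpr137b-ps, had a promoter peak too low for the test, and 24 had none, their assigned peaks lying in introns, exons or between genes. The median member had 2.5 peaks against 3 for all genes and, in WT, 37 CPM per kb against 44.1 CPM per kb. Of the 197 member peaks, 93 were in introns, 50 were intergenic and 33 were promoter peaks; 83 lay inside the member gene itself and 83 inside another protein-coding gene. The table assigns a peak to the nearest start, so a peak far away may belong to a neighbour: 83 member peaks were 10 to 100 kb from the start and 2 were farther. A further 27 RefSeq genes with such names had no assigned peak in the table used here, though 4 held a peak assigned elsewhere. They include Gpr17 and Gpr37, known from the oligodendrocyte lineage, Gpr26, Gpr45 and Gpr139, known from neurons, and Gpr39 and Gpr119, receptors of zinc and of lipid amides, and 15 of the 27 are in the group of receptors known mainly from neurons, glia or tissues outside the brain, beside 17 of that group with a peak.

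**Figure D1:**
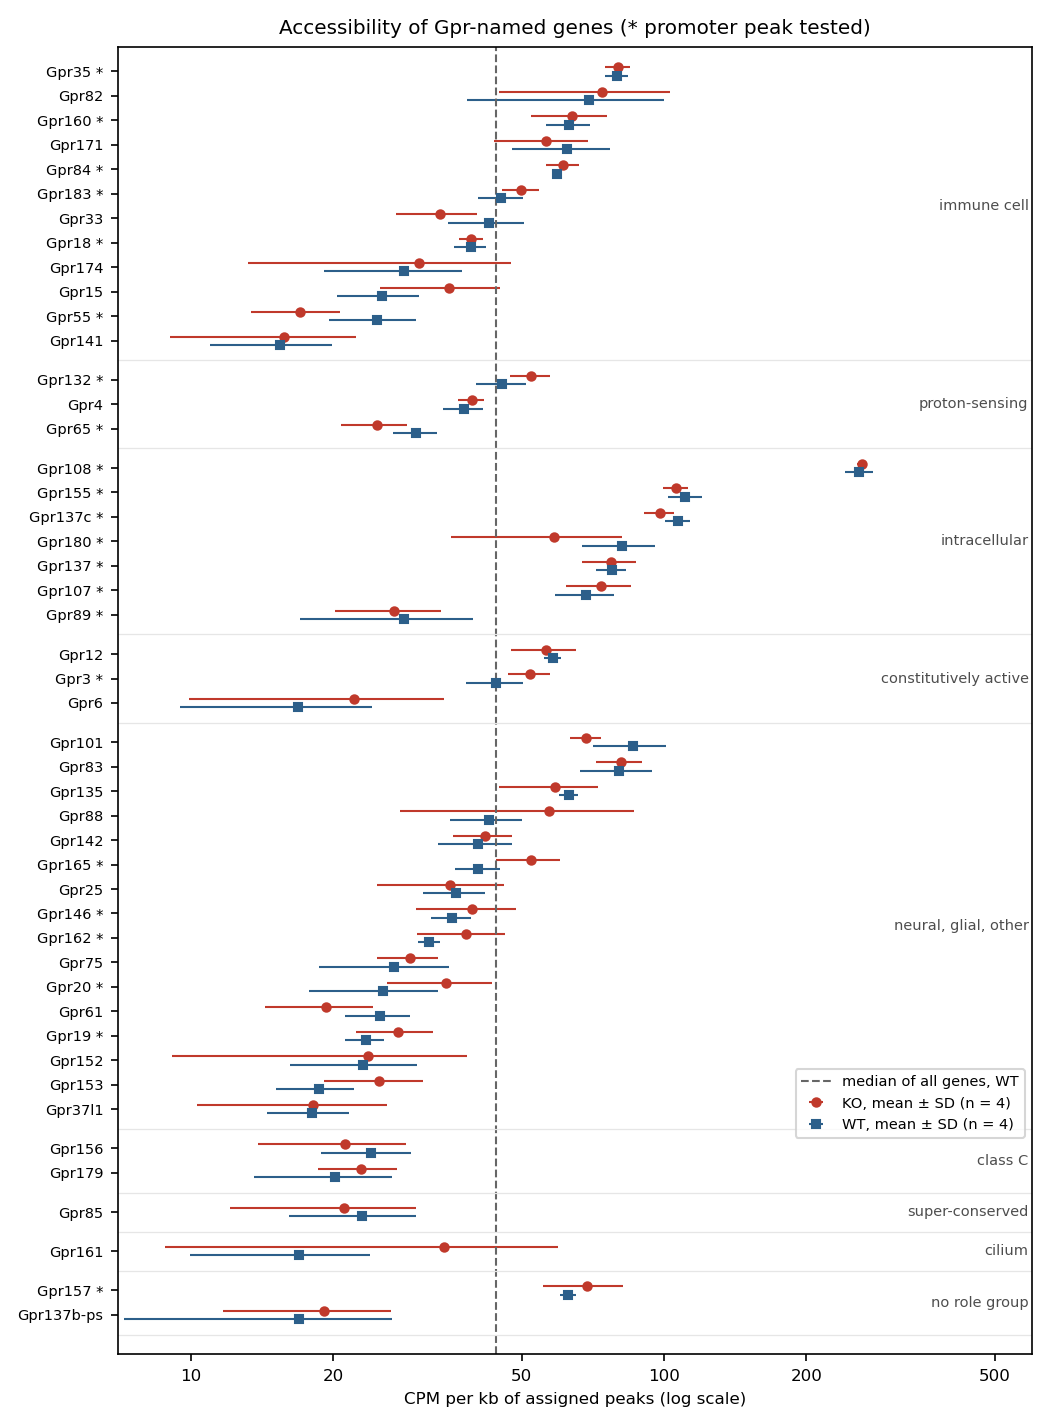
Accessibility of 47 of the 50 members as CPM per kb of assigned peaks on a log axis (points: mean, bars: SD, 4 libraries per genotype), grouped by role, KO above WT in each row; an asterisk marks members with a tested promoter peak and the dashed line the WT median of all genes, 44.1 CPM per kb. Gpr108 stands apart at 262 in KO and 259 in WT, and Gpr141 is the lowest at 15.7 in KO and 15.4 in WT.

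Among receptors known from immune cells, 12 members had a peak and 6 of them an open promoter (Gpr18, Gpr35, Gpr55, Gpr84, Gpr160 and Gpr183). The promoter peak of Gpr18 lay 745 bases before the start and did not reach its RefSeq promoter window. WT levels of the 12 members ran from 15.4 to 79.4 CPM per kb, with a median of 44. Gpr183, the oxysterol receptor that guides migrating lymphocytes, had more peaks than any other member, 19. Their sum was 279, 239, 289 and 293 CPM in the KO libraries and 288, 227, 233 and 250 CPM in the WT libraries. These ranges overlap widely. Its promoter peak carried 21.4 ± 4.87 CPM in KO and 19.4 ± 3.16 CPM in WT (SD, n = 4 each), and a peak in an intron 3255 bases into the gene (chr14:121961742-121962134) was higher, at 61.3 ± 9.57 CPM in KO and 50.9 ± 8.73 CPM in WT. The rest of its accessibility was spread from 15159 bases beyond the start to 31830 bases before it.

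Gpr183 and Gpr18, a receptor of lymphocytes for which lipid ligands were proposed, lie inside the larger gene Ubac2, in its introns, and 30 of the 33 peaks inside Ubac2 were assigned to this pair. Gpr18 had 121 ± 6.87 CPM in KO and 121 ± 9.66 CPM in WT over 11 peaks, of which the highest, 33.9 ± 8.86 CPM in KO and 33.2 ± 6.43 CPM in WT, lay 22849 bases before the start and thus between both receptors. This peak is 503 bases wide, and its level per kb was 67.4 CPM in KO and 66 CPM in WT. The Gpr18 promoter peak was close to it, at 60.8 CPM per kb in KO and 66.1 CPM per kb in WT. Whether a peak inside Ubac2 serves Gpr183, Gpr18 or Ubac2 itself cannot be read from the assignment.

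Gpr84, which responds to medium-chain fatty acids and is induced in inflamed macrophages and microglia, had 150, 129, 150 and 133 CPM in KO and 137, 139, 137 and 133 CPM in WT over 8 peaks. All WT libraries lay inside the KO range. Its promoter peak had 155 CPM per kb in WT, above 87.2% of all promoter peaks, and a peak 5066 bases beyond the start was as high (148 CPM per kb). Gpr35, a receptor of gut and immune cells for which kynurenic acid was proposed as a ligand, had the highest level per kb among the immune cell receptors, 79.9 ± 4.88 in KO and 79.4 ± 4.35 in WT (CPM per kb). Most of it came from 2 promoter peaks, 39.1 and 44.3 CPM in KO and 40.8 and 45.8 CPM in WT, of 110 ± 6.73 CPM in KO and 109 ± 6 CPM in WT in all. Gpr160, an orphan, had an intron peak 8858 bases into the gene at 231 CPM per kb in WT, above 98.4% of all peaks, while its promoter peak (53.4 CPM per kb) was near the middle of all promoter peaks and was shared with the start of Gm42199.

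In the remaining immune cell receptors peaks were few or distant. Gpr82, the X-linked neighbour of Gpr34, had a single peak 6098 bases before its start, with 30.7, 13, 21.6 and 35.5 CPM in KO and 38, 25, 16.5 and 15 CPM in WT, a spread of more than 2 times within each genotype. By RefSeq bounds that peak lies inside Gpr82, and Gpr82 lies inside the larger gene Cask. Which of them the peak serves cannot be read from the assignment. Gpr171, a neuropeptide receptor also found on T cells, had 2 peaks 42412 and 46792 bases from its start, both inside Med12l, the host gene of a receptor cluster with P2ry12, P2ry13 and P2ry14. Levels per kb were 56.3 CPM in KO and 62.2 CPM in WT for Gpr171, beside 75.9 CPM in KO and 74.4 CPM in WT for P2ry12, the nucleotide receptor that marks microglia. Gpr55, a lysophosphatidylinositol receptor, had a weak promoter peak, above 20% of promoter peaks. Gpr141, an orphan of myeloid cells, had the lowest level per kb of the members and no promoter peak, and its sum was 3.27 ± 1.38 CPM in KO and 3.21 ± 0.927 CPM in WT. Gpr15, a homing receptor of T cells, Gpr174, a lysophosphatidylserine receptor of lymphocytes, and Gpr33, a chemoattractant-like receptor, likewise had no promoter peak.

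**Figure D2:**
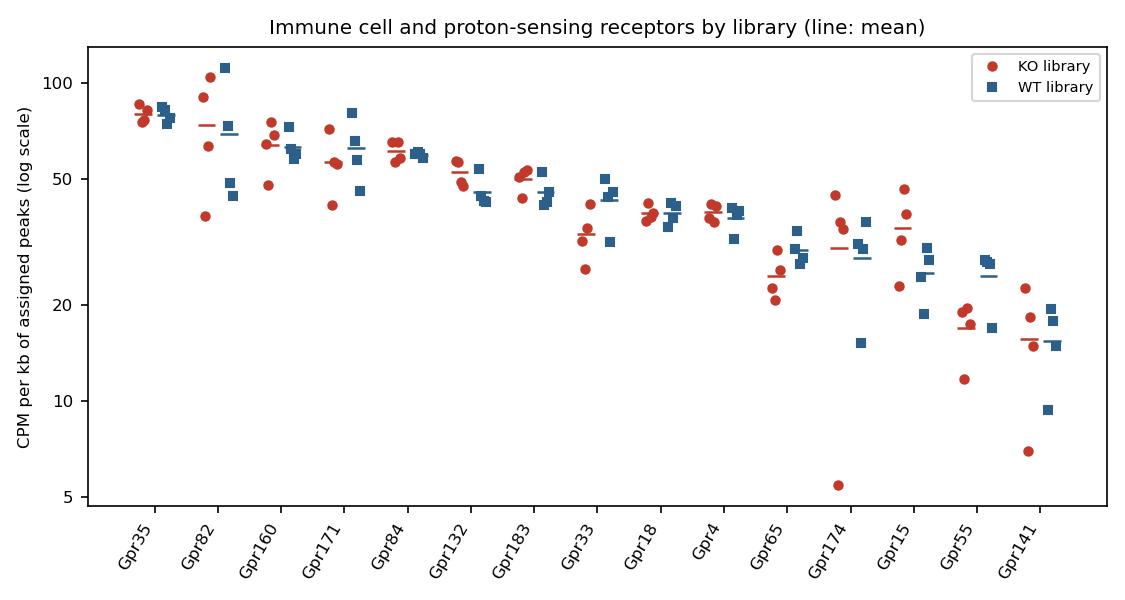
CPM per kb of assigned peaks (log axis) for 15 immune cell and proton-sensing members, ordered by WT mean, with each KO library as a red circle left and each WT library as a blue square right, and a line at each mean. WT means run from 79.4 CPM per kb for Gpr35 to 15.4 for Gpr141, and KO and WT libraries overlap in every member shown.

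Of the receptors grouped here as proton-sensing, Gpr132, which was proposed as an acid sensor and responds to oxidised fatty acids, had 176, 174, 151 and 146 CPM in KO and 166, 136, 131 and 130 CPM in WT over 10 peaks, an order in which WT replicate 1 overlaps the KO libraries. Its promoter peak was modest (12.8 ± 4.48 CPM in KO, 11.2 ± 5.69 CPM in WT). A run of peaks 4070 to 19123 bases before the start reached 29.5 ± 5.56 CPM in KO and 28 ± 3.53 CPM in WT in the peak 14836 bases away. Those 10056 and 19123 bases away were below the promoter peak, at 9.71 and 9.31 CPM in KO and 6.33 and 8.56 CPM in WT. Per kb the peak 4070 bases away was the highest, at 109 CPM in both genotypes, against 96 in KO and 91.3 in WT for that 14836 bases away. Gpr65, the acid sensor best known from lymphoid and myeloid cells, had 8 peaks from 2745 bases before to 23804 bases beyond its start and a weak promoter peak above 11.5% of promoter peaks. Gpr4, best known from endothelium, had a promoter peak below the test's minimum, at 3.2 ± 1.46 CPM in KO and 3.89 ± 1.68 CPM in WT, and a pair of intron peaks of 13.7 and 15.9 CPM in KO and 15.4 and 13.8 CPM in WT.

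**Figure D3:**
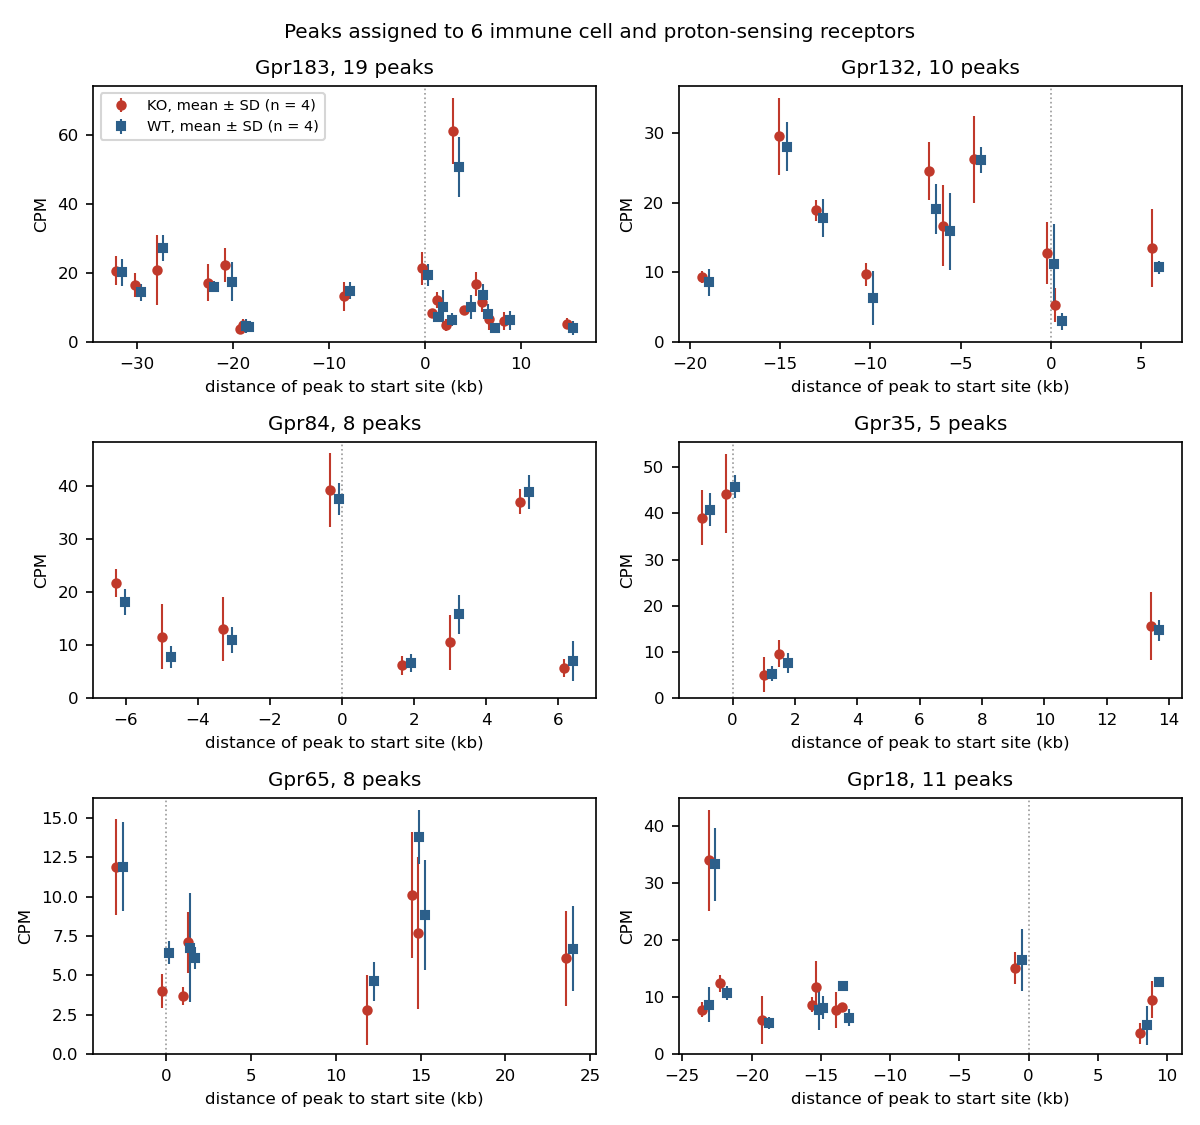
Mean CPM of every peak assigned to 6 immune cell and proton-sensing receptors against its distance to the start site in kb (bars: SD, 4 libraries per genotype; negative: before the start; KO red circles shifted slightly left and WT blue squares slightly right of the true position). Gpr35 and Gpr84 have a high peak at the start, Gpr183 its highest peak 3255 bases inside the gene, and Gpr18 its highest peak 22849 bases before the start.

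The 7 intracellular multi-pass proteins were all open at a start site, and their median level, 81.4 CPM per kb in WT, was above that of every other role group with more than 1 member. Over all peaks in WT, promoter peaks had a median of 57 CPM per kb and the others 31.6 CPM per kb. A level per kb therefore also follows the share of promoter peaks in a sum, and the groups were not compared by promoter peaks alone. Gpr108, a Golgi protein, had 262 ± 5.57 CPM per kb in KO and 259 ± 17.3 in WT, above 99.6% of all genes, from promoter peaks alone. The higher of the pair, chr17:57247690-57247991, had 91.7, 105, 105 and 98.3 CPM in KO and 94.5, 111, 102 and 111 CPM in WT. Gpr155, a lysosomal cholesterol sensor, and Gpr137c, of a lysosomal family, followed at 106 ± 6.45 and 97.9 ± 7.32 CPM per kb in KO and 111 ± 9.24 and 107 ± 6.38 in WT; they do not differ from each other beyond the spread in either genotype. Gpr137, of the same family as Gpr137c, had 77.2 ± 10.1 CPM per kb in KO and 77.5 ± 5.7 in WT, and Gpr107, a Golgi relative of Gpr108, 73.5 ± 11.5 in KO and 68.5 ± 9.69 in WT. The Gpr107 promoter peak was weak, at 23.9 CPM per kb in KO and 31.1 in WT, above 24.2% of promoter peaks. Its intron peaks 18156 and 19907 bases into the gene had 147 and 105 in KO and 123 and 103 in WT. Gpr180, linked to TGF-beta signalling, had 58.4 ± 22.9 in KO and 81.4 ± 14.4 in WT from its only peak, and Gpr89, an anion channel of the Golgi, was the weakest at 26.9 ± 6.8 in KO and 28.2 ± 11.2 in WT. The only peak of Gpr89, at its promoter, was above 22% of promoter peaks.

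Several of these starts are shared with a neighbour, so their openness is not the member's alone. The Gpr137c promoter peak also covers a start of Txndc16, that of Gpr137 one of Bad, a promoter of cell death, and those of Gpr107 and Gpr155 starts of D330023K18Rik and Gm13707. Gpr108 itself lies within the bounds of Trip10.

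Of the constitutively active receptors that raise cAMP without a known need for ligand, Gpr3 had 2 promoter peaks, Gpr12 had 5 intergenic peaks 11802 to 96411 bases before its start, and Gpr6 a single peak 67732 bases away. Summed levels were 51.3 ± 5.18, 69.8 ± 11.1 and 4.44 ± 2.45 CPM in KO and 43.5 ± 6.06, 72 ± 2.98 and 3.37 ± 1.47 CPM in WT for Gpr3, Gpr12 and Gpr6. The 17 receptors known mainly from neurons, glia or tissues outside the brain had a median of 31.9 CPM per kb in WT, and 6 of them were open at a start, among them Gpr19, Gpr20, Gpr146, Gpr162 and Gpr165. Gpr146, linked to cholesterol regulation in the liver, had 176, 226, 130 and 153 CPM in KO and 140, 175, 158 and 147 CPM in WT over 13 peaks, all within the bounds of 3110082I17Rik. KO replicate 2 was the highest library there. Gpr101, a receptor of the hypothalamus and pituitary, ranked high per kb (68.5 ± 5.1 in KO, 86 ± 15.2 in WT) from 1 peak 203332 bases from its start. Gpr83, a neuropeptide receptor, had 81 ± 9.03 in KO and 80.3 ± 13.8 in WT, and its highest peak lay 24704 bases away in the gene Mre11a. Gpr135, an orphan, had 58.7 ± 13.9 in KO and 62.9 ± 2.82 in WT from a peak in its exon.

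Besides Gpr141 and Gpr6, the members with the lowest summed CPM, and so the fewest tags behind their values, were Gpr137b-ps, Gpr161 and Gpr85. Gpr161, which represses hedgehog signalling at the cilium, had 5.9, 18.8, 6.35 and 4.64 CPM in KO and 3.9, 2.03, 5.85 and 5.75 CPM in WT, with KO replicate 2 far above the rest. Gpr85, a conserved brain receptor, had 4.37 ± 1.85 CPM in KO and 4.79 ± 1.44 in WT. Gpr157, known from radial glia, stood out among members with no role group: its promoter peak had 79.9 ± 15.8 CPM in KO and 72.3 ± 7.92 CPM in WT, above 97.7% of promoter peaks per kb.

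The comparison of KO with WT asked whether loss of Nlrp3 changed access at these genes, and none of the 46 tested members passed the test, in either direction (edgeR's quasi-likelihood test, adjusted p under 0.05 over 15476 genes). The 4 members left untested for low counts were Gpr6, Gpr85, Gpr137b-ps and Gpr141. Across all genes 33 of 15476 passed, 0.213% (0.0775% with KO higher and 0.136% with KO lower), so 0 of 46 is near the background. An unadjusted p under 0.05 was found in 3 members (6.52%) and in 5.96% of all genes. The smallest adjusted p of a member was 0.645. Of the 46, 27 had a log2 fold change above 0 and 19 below, 44 lay within 0.5 of 0, and the median was 0.04, against 0.002 over all genes. The SE of a member's log2 fold change was 0.16 in the median and 0.09 to 0.43 in all, so for the least covered member a log2 difference of 0.43 equals 1 SE. A p that misses the threshold does not show that a receptor was the same in both genotypes. Gene sums also hold peaks called in WT alone or in KO alone. These made up 19.8% and 9.64% of member peaks, and 16.3% and 8.18% of all peaks. The choice of such a peak already leaned on a higher signal in that genotype, and their part in the fold changes was not tested.

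**Figure D4:**
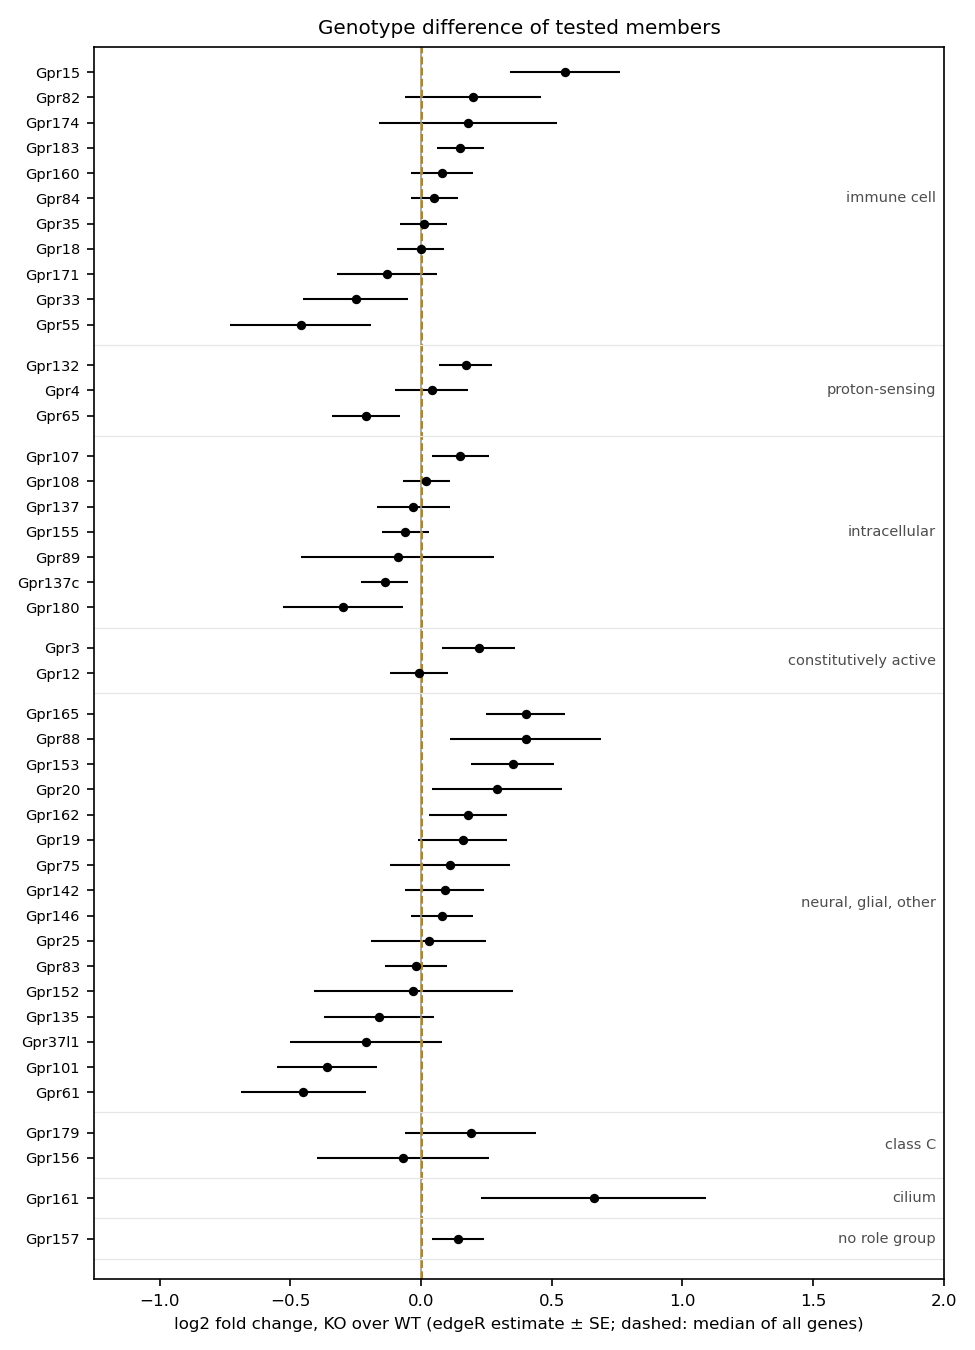
Log2 fold change of KO over WT for 43 of the 46 tested members, grouped by role (points: edgeR estimate, bars: SE; dashed line: median of all genes, 0.002). Estimates run from -0.46 for Gpr55 to 0.66 for Gpr161, and no member passed the adjusted threshold.

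Members with the smallest p on the higher side were Gpr15, Gpr165 and Gpr153. Gpr15 had 16.5, 23.1, 33.4 and 27.8 CPM in the KO libraries and 17.6, 13.5, 21.8 and 19.9 CPM in the WT libraries, with KO replicate 1 below 3 of the 4 WT libraries. Its log2 fold change was 0.55 ± 0.21 (SE, adjusted p = 0.645, edgeR's quasi-likelihood test). All 3 of its peaks were intergenic, 6292 to 16271 bases from the start. Gpr165, an X-linked receptor, had 29.5, 37.6, 43.6 and 38.3 CPM in KO and 30.2, 24.3, 29.8 and 31.4 CPM in WT, so only KO replicate 1 overlapped the WT libraries; the log2 fold change was 0.40 ± 0.15 (adjusted p = 0.698, edgeR). Gpr153, an orphan of the brain, had 76.7, 65.1, 47.4 and 48.8 CPM in KO and 48.8, 51.4, 44.2 and 32.7 CPM in WT. The 2 KO libraries with few tags in peaks were the highest there, and the 2 with more tags in peaks overlapped WT. The log2 fold change was 0.35 ± 0.16 (adjusted p = 0.808, edgeR). Gpr183 and Gpr132 followed at 0.15 ± 0.09 and 0.17 ± 0.10 (adjusted p = 0.877 and 0.881, edgeR).

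On the lower side the smallest p values belonged to Gpr61, Gpr101, Gpr55, Gpr65 and Gpr137c. Except for Gpr101, their sums include peaks called in WT alone. For the higher side, the sums of Gpr15, Gpr165 and Gpr132 include a peak called in KO alone. That of Gpr153 includes peaks called in WT alone, and that of Gpr183 peaks of both kinds. Gpr65 had 47.2, 43.4, 62.2 and 53.8 CPM in KO and 62.9, 71.6, 56.4 and 58.8 CPM in WT, with KO replicate 3 inside the WT range and a log2 fold change of -0.21 ± 0.13 (adjusted p = 0.893, edgeR). Gpr55 had 9.44, 5.79, 9.73 and 8.65 CPM in KO and 13.7, 13.5, 13.3 and 8.4 CPM in WT, where WT replicate 4 alone overlapped the KO libraries (-0.46 ± 0.27, adjusted p = 0.891, edgeR). Gpr61, an orphan of the brain, had a log2 fold change of -0.45 ± 0.24, Gpr101 of -0.36 ± 0.19 and Gpr137c of -0.14 ± 0.09, with adjusted p of 0.846, 0.867 and 0.895. Gpr101, Gpr165, Gpr82 and Gpr174 are X-linked, and tags on chromosome Y numbered 9, 2, 88 and 1 in KO replicates 1 to 4 and 9, 13, 201 and 255 in WT replicates 1 to 4; the part of the sex of the animals in these values was not tested.

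**Figure D5:**
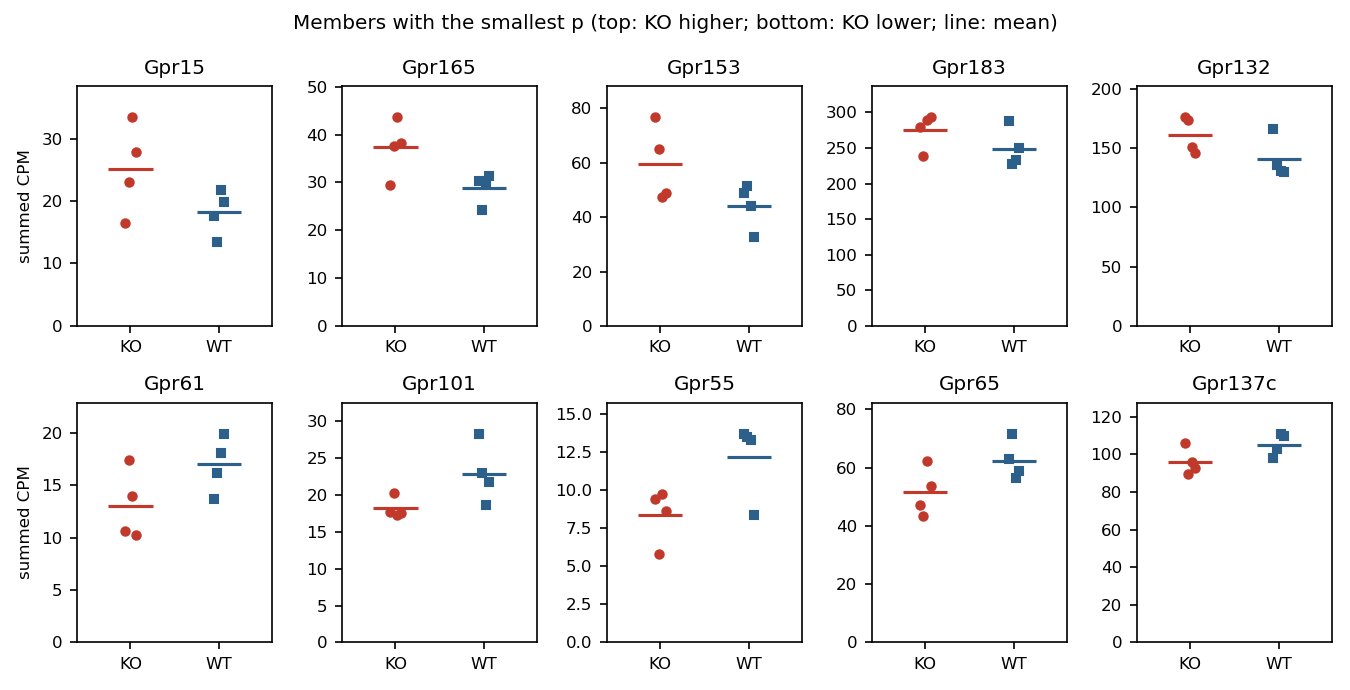
Summed CPM per library for the 5 members with the smallest p on the higher side in KO (top) and on the lower side (bottom), KO left and WT right in each panel, with a line at the mean; axes start at 0. The KO and WT libraries overlap in all 10 panels.

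Gpr3 was the only tested member whose libraries did not overlap, with 59, 49.2, 48.7 and 48.2 CPM in KO and 46.8, 45.3, 47.3 and 34.5 CPM in WT, KO being higher. Such a separation with KO higher was found in 1.78% of all tested genes, and with KO lower in 1.67% of genes and in 0 members. The gap between the lowest KO and the highest WT library was small beside the spread within each genotype, and the log2 fold change was 0.22 ± 0.14 (adjusted p = 0.894, edgeR).

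Single peaks gave the same count: 0 of 170 tested member peaks passed, against 99 of 58135 peaks in all, 0.17% (0.055% with KO higher and 0.115% with KO lower). An unadjusted p under 0.05 was found in 8 member peaks (4.71%) and in 4.83% of all peaks. The smallest adjusted p, 0.622, belonged to an intergenic peak 19091 bases from the start of Gpr165 (chrX:96732445-96732674), with 6.03, 11.8, 7.46 and 7.44 CPM in KO and 3.98, 4.22, 3.41 and 2.33 CPM in WT and a log2 fold change of 1.17 ± 0.37 (SE). This peak was called in the KO libraries alone, so its choice already leaned on a higher KO signal. The promoter peak of Gpr165 had 22.9 ± 5.18 CPM in KO and 21 ± 4.4 CPM in WT (log2 0.19 ± 0.21).

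No overlap between the libraries was seen with KO higher at 3 tested member peaks (1.68% of all tested peaks), in Gpr146, Gpr153 and Gpr165, and with KO lower at 3 (1.49% of all), among them peaks of Gpr65 and Gpr157. At the Gpr65 promoter, chr12:98268468-98268750, KO libraries had 2.41, 4.43, 4.39 and 4.85 CPM and WT libraries 6.46, 6.32, 7.4 and 5.59 CPM (log2 -0.57 ± 0.36, unadjusted p = 0.124, edgeR's quasi-likelihood test). That peak was called in WT alone and rests on few tags per library. Within Gpr157 the peaks went different ways: the intergenic peak 6969 bases before the start had 9.39 ± 2.44 CPM in KO and 15.1 ± 1.43 CPM in WT, and the intron peak 4563 bases into the gene 9.12 ± 4.49 CPM in KO and 5.66 ± 1.87 CPM in WT, while neither passed the adjusted test. At Gpr153 the peak with the smallest p lay 34976 bases before the start inside Acot7, with 13.5 ± 4.88 CPM in KO and 7.72 ± 2.74 CPM in WT.

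The proteins that carry the signal onward were examined with the same fit, and none of their tested genes passed in either direction. Of the G protein alpha subunits, 13 of 16 had a peak and 10 an open promoter; 12 were tested, with a median log2 fold change of -0.04. For beta and gamma subunits, 12 of 17 had a peak and were tested, with a median of -0.04. Receptor kinases and arrestins had 9 of 10 with a peak, 8 tested and a median of 0.01; RGS proteins had 13 of 21, all 13 tested, and a median of 0.04; adenylyl cyclases had 5 of 10, all 5 tested, and a median of -0.006. Their median levels per kb in WT were 48, 42.7, 68.1, 48.3 and 29.8 CPM per kb in that order, beside 37 for the Gpr-named members, so adenylyl cyclases were the group below the receptors. An unadjusted p under 0.05 was seen in 1 alpha subunit gene, 2 kinase or arrestin genes and 1 RGS gene, and in 0 of the beta, gamma and cyclase genes. That is 4 of 50 tested genes, near the 5.96% of all genes, and 0 called is near the 0.213% of all genes.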

How the data were processed

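Per the file headers, the authors merged peak lists of the WT and KO libraries and counted the tags of each merged region in HOMER (annotatePeaks); the deposited counts are whole tags per peak and library, with the authors' nearest gene, annotation and distance to a start. Per the submitters' processing notes, Bowtie2, HOMER, DESeq2 and mm10 were used, without versions. How reads were aligned, deduplicated or shifted is not given in the sources used here. A second, normalized table was not used.

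All 8 libraries entered a quasi-likelihood F test in edgeR 4.0.16 (limma 3.58.1, R 4.3.3) with TMM scaling, filterByExpr with a minimum count of 10, genotype as the only term, and Benjamini-Hochberg adjustment over all genes or all peaks at 0.05. Gene sums took every assigned peak; 117 peaks without a gene entered only the peak test. CPM are tags over the TMM-scaled tags in tested features, set separately for genes and peaks. The SE is the log2 fold change over the root of F. The fit was tested on simulated data. Host genes, starts and promoter windows came from RefSeq tables of GRCm38.p6, in which all 50 members were matched. An open promoter is a tested peak annotated promoter-TSS.

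The members, role groups and gene lists were chosen with earlier results of these data known. Named members are those passing the test or else the 5 of smallest p on either side, the 12 highest per kb and 8 highest summed in WT, the 5 lowest, all tested immune cell and proton-sensing members, and Nlrp3; members named beyond these are examples of their role group chosen after their values were seen. The neural, astrocyte, oligodendrocyte, endothelial, macrophage and lymphocyte marker lists had no gene passing the test. A few members are not reported here by name and not drawn, but enter the counts over members. Alternatives were another scaling, tool, filter, peak set, left-out libraries and a replicate block. Library depth and the share of tags in peaks limit the precision, and the share was lowest in KO replicates 1 and 2.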

Additional observations from a re-analysis of the deposited data

Results flagged for a closer look

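Among 144 groups of 4 libraries examined (summed levels of named members, named peaks and the member share), 8 held a library apart from the other 3 by the spacing of the values, 5.56%; chance alone flags about 1 in 20 such groups. In KO replicate 2, the library with the fewest tags in peaks, Gpr161 had 18.8 CPM against 4.64 to 6.35 CPM in the other KO libraries, and Gpr101 20.3 CPM against 17.3 to 17.7 CPM. The single Gpr101 peak gives the same picture, at 20.7 CPM in KO replicate 2 against 18 to 18.4 CPM. The share of tags in peaks that fell in member peaks was 0.263% in KO replicate 1 against 0.266% in the other 3, a small gap.

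Of the WT libraries, Gpr132 had 166 CPM in WT replicate 1 against 130 to 136 CPM, and Gpr55 had 8.4 CPM in WT replicate 4 against 13.3 to 13.7 CPM. The promoter peak of Gpr183 had 14.8 CPM in WT replicate 2 against 20.5 to 21.6 CPM. In WT replicate 3 the peak of Gpr83 in Mre11a had 34.1 CPM against 46.6 to 48.2 CPM. How far the depth of a library bears on these values was not tested.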

How the results depend on the processing

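The count of 0 members and 0 member peaks called held under every alternative run, and no named member or peak passed the threshold in 502 and 512 refits; the estimate changed sign in 33 and 27 of these, for 14 members and 12 peaks, and the cause was not tested. The lowest adjusted p of a member was 0.2 without KO replicates 1 and 2 (edgeR) and 0.999 with DESeq2. Scaling to all tags left 0 members with an unadjusted p under 0.05 (edgeR). Genes called over the whole table, 33 in all, numbered 5 with scaling to all tags, 70 without KO replicates 1 and 2, 8 with promoter peaks only, and 20 to 42 when 1 library was left out, lowest without KO replicate 3 and 21 without WT replicate 3. Peaks called, 99 in all, numbered 19 with scaling to all tags, 65 with DESeq2, 32 with the minimum count raised to 30, 246 without KO replicates 1 and 2, and 65 to 123 when 1 library was left out. The median log2 fold change of the members was 0.12 with scaling to all tags, which moved the median of all genes to 0.09, and 0.08 with promoter peaks only, against 0.04. Members with an open promoter numbered 13 with the raised minimum count and 21 by any peak over a RefSeq window, a count chosen after seeing the data, against 23. The log2 fold change of Nlrp3 was -1.02 and lost its call with scaling to all tags, and Nlrp3 kept its call in every other alternative.

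The correlations of deviations between same-numbered KO and WT libraries were 0.0127, 0.0884, -0.0207 and 0.179. Between libraries of other numbers they ran from -0.128 to 0.0876. Whether libraries of the same number form pairs cannot be told from so few values. With a replicate block, 38 genes and 140 peaks were called, 0 of them members, and the median of the members was 0.05. The lowest adjusted p of a member was then 0.324 (edgeR's quasi-likelihood test).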
